A study of Homo sapiens with 12 samples.

Results

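Cancer/testis antigen genes were followed in RNA-seq libraries of 2 established human gastric cancer lines, MKN28 and MKN45, in which ZNF165, itself a zinc-finger gene made mainly in the testis, had been lowered or raised. The genes were chosen by symbol: protein-coding genes whose symbol begins with MAGEA, MAGEB, MAGEC, GAGE, XAGE, PAGE, SSX followed by a digit, CTAG, BAGE (of which none was found), SPANX or CT45A, and the single genes PRAME, DDX53, TEX14, SYCP1, DDX4, ACTL8, CTCFL and BRDT. They came to 94 of the 50868 gene identifiers in the deposited count table, 19691 of which are protein-coding, and 80 of the 94 lie on the X chromosome. Taken letter by letter, the rule also brings in 6 CTAGE genes and SSX2IP, which only share the first letters of CTAG and SSX, and counts are also given for the 87 genes without them.

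MKN28 cells with ZNF165 knockdown carried a lentiviral siRNA construct and were compared with MKN28 cells labelled as wild type that carried a control lentivirus. MKN45 cells with ZNF165 overexpression carried a ZNF165 lentivirus and were compared with MKN45 cells labelled as wild type that carried the control lentivirus. Each of the 4 groups held 3 libraries, and the labels do not say whether these came from separate cultures, so p-values measure the spread between libraries, which may be technical. Knockdown replicates 2 and 3 are described with siRNA constructs against ZNF166 and ZNF167, but their genotype label is ZNF165 knockdown, which was followed. MKN28 is known to cell line registries as a misidentified line derived from MKN74, another gastric line. Whether the transduced cells were clones or pools is not given in the sources used here.

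Cancer/testis antigens are proteins of the male germ line that most adult somatic tissues do not make and that many tumours do. Most belong to multicopy families on the X chromosome, and in somatic cells their promoters are held silent by DNA methylation, so that demethylated tumour cells can switch them on. Because the testis presents few peptides to T cells, MAGEA proteins, NY-ESO-1 (the product of CTAG1B) and PRAME have been used as targets of tumour vaccines and T-cell therapies.

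ZNF165 (ENSG00000197279) had 74, 40 and 22 counts in MKN28 knockdown libraries, against 262, 186 and 287 counts in MKN28 control libraries. It had 2115, 1977 and 1909 counts in MKN45 overexpression libraries, against 156, 140 and 277 counts in MKN45 control libraries. The fitted log2 fold change was -1.47 for knockdown (edgeR quasi-likelihood test, adjusted p = 0.0459, Benjamini-Hochberg) and 3.09 for overexpression (adjusted p = 0.0109). The knockdown call was lost without any 1 of the 3 controls, or without knockdown replicate 2 or 3, and the adjusted p without 1 library ran from 0.0116 to 0.173. The overexpression call was lost without overexpression replicate 1 or 2, with an adjusted p of up to 0.0707. Libraries held 12075813 to 19548445 counts, so that 3 counts correspond to 0.153 to 0.248 CPM, a count scaled to the size of its library. The epithelial markers chosen for the check (EPCAM, KRT8, KRT18, KRT19, CDH1, CLDN4, CLDN3 and ELF3) had at least 10 counts in every library, while the 8 male germ-cell markers summed to at most 1.30 CPM and 5 of them had no count at all.

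Of the 94 genes, 36 had no count in any library, 28 reached between 1 and 9 counts at most, and 30 reached at least 10 counts in some library, here called on. All 30 did so in MKN28, and 9 of them did so in MKN45 as well: MAGEA3, MAGEA6, PRAME, ACTL8, SSX2IP, CTAGE4, CTAGE6, CTAGE8 and CTAGE15. Of the 21 that reached it in MKN28 alone, 14 had no count in any of the 6 MKN45 libraries. Whole families had few or no counts in either line. The 12 GAGE genes reached at most 4 counts, the 6 PAGE genes at most 6, and the 8 SSX genes, which encode transcriptional repressors known from the fusion protein of synovial sarcoma, at most 3. The 3 CTAG genes, CTAG1B for NY-ESO-1 among them, reached at most 3 counts. In several of these families the copies are near-identical: GAGE12C, GAGE12D, GAGE12E, GAGE12G, GAGE2E, SSX2, SSX4 and SSX4B have 0% of their 100-base stretches to themselves, CTAG1A 14.7% and CTAG1B 15.1%. How the authors' counting treated reads shared between copies is not known, so counts of 0 for such copies do not limit their level. The germ-cell helicase DDX4 and the synaptonemal complex gene SYCP1 reached at most 3 counts, the CTCF paralog CTCFL and the helicase gene DDX53 at most 1, and the testis bromodomain gene BRDT had none. For genes with unique sequence, a count of 0 in the shallowest library allows a level of up to 0.248 CPM, and such limits cover counting error only.

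**Figure D1:**
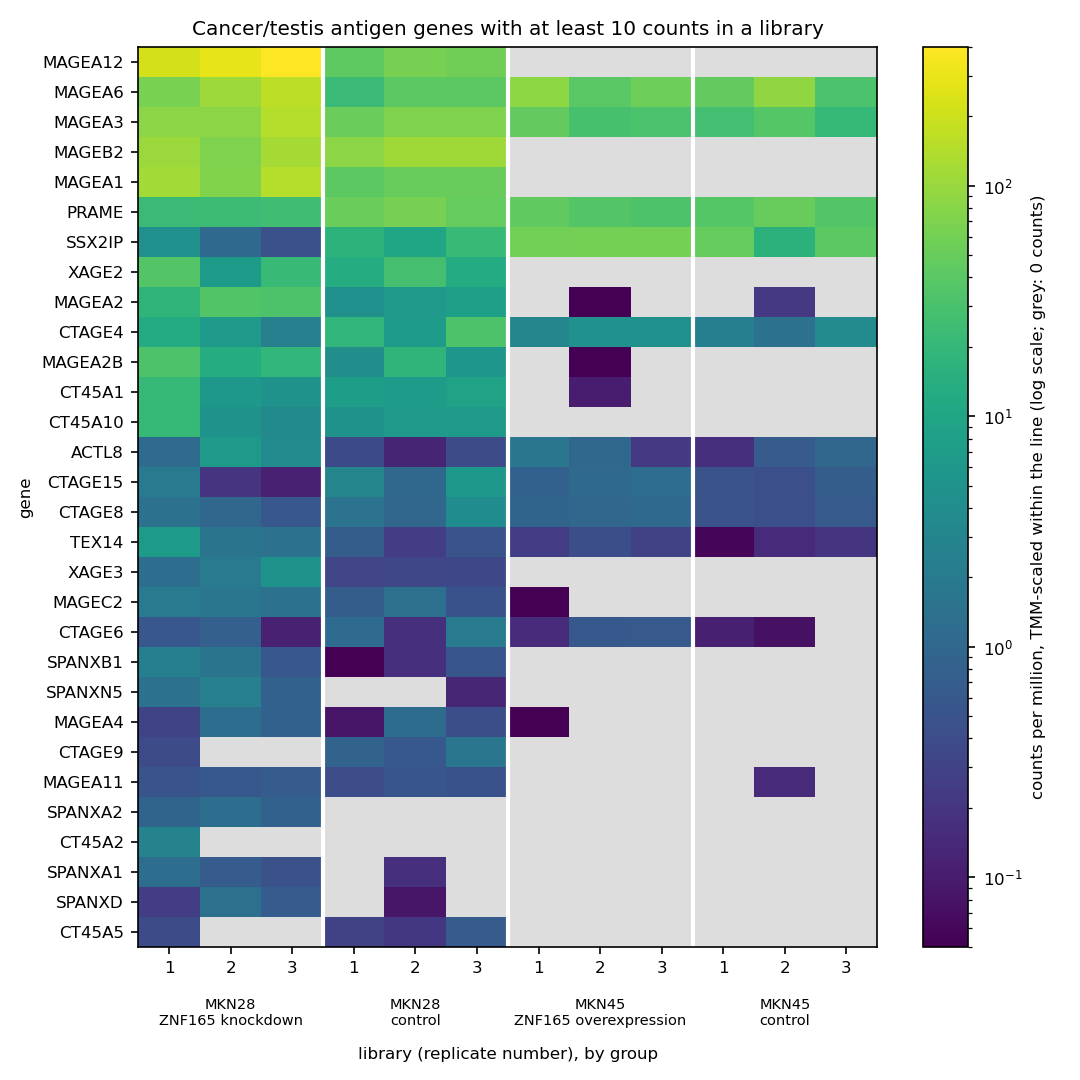
CPM (colour, log scale, TMM-scaled within each line; grey marks 0 counts) of the 30 cancer/testis antigen genes with at least 10 counts in some library, rows sorted by mean level, in the 3 libraries of each of the 4 groups. The MAGEA12, MAGEB2, MAGEA1 and XAGE2 rows are coloured in all 6 MKN28 libraries and grey in all 6 MKN45 libraries, while MAGEA3, MAGEA6 and PRAME are coloured in all 12.

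Summed over the 94 genes, cancer/testis antigen genes made up 808, 420 and 804 CPM of the MKN28 knockdown libraries, against 514, 619 and 665 CPM of the MKN28 control libraries. In MKN45 the sums were 249, 185 and 197 CPM in overexpression libraries, against 165, 174 and 136 CPM in control libraries. Without SSX2IP and the CTAGE genes the MKN45 sums were 184, 113 and 125 CPM, against 113, 158 and 89.3 CPM, and the groups overlapped. SSX2IP alone gave 59.9, 64.0 and 64.1 CPM in overexpression libraries, against 48.2, 14.0 and 41.2 CPM in controls. In MKN28 the sums without these genes were 785, 414 and 802 CPM in knockdown libraries, against 456, 594 and 573 CPM in controls. MAGEA genes gave 553, 340 and 664 CPM in MKN28 knockdown libraries, against 230, 317 and 316 CPM in MKN28 control libraries, so the groups did not overlap for this family. MAGEB genes, nearly all of it MAGEB2, gave 107, 39.6 and 85.6 CPM in knockdown libraries, against 117, 141 and 150 CPM in control libraries, and lay below the controls on this unscaled measure. These sums are CPM of the library total with no further scaling, while CPM of single genes are TMM-scaled within a line.

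**Figure D2:**
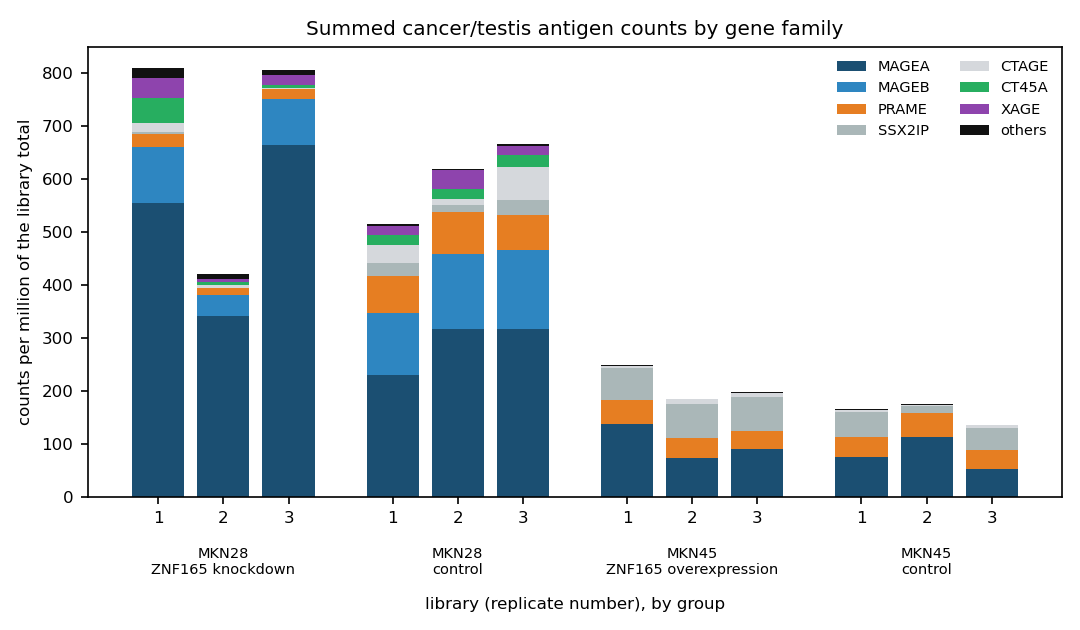
Summed level of all 94 cancer/testis antigen genes in CPM of the library total (vertical axis), stacked by gene family, for each of the 3 libraries of the 4 groups. MAGEA genes take 340 to 664 CPM in MKN28 knockdown libraries and 230 to 317 in MKN28 controls, and MAGEB, CT45A and XAGE segments are visible in MKN28 alone.

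Many of these genes were on in MKN28 and off in MKN45. Between control libraries, 14 of the 17 cancer/testis antigen genes that could be tested were lower in MKN45 than in MKN28 and none was higher (quasi-likelihood test of edgeR with Benjamini-Hochberg adjustment, adjusted p under 0.05), while 20.4% of all 16088 genes tested were lower and 21.4% higher. At an unadjusted p under 0.05 the count of higher genes was also 0, and DESeq2 called 0 higher. With the replicate block, 8939 genes were called instead of 6717, 15 of the 17 were lower and 1, SSX2IP, was higher. The groups did not overlap, with MKN45 lower, for 15 of the 17, against 25.4% of all genes tested, and with MKN45 higher for 0 of the 17, against 26.9%. The other 77 genes did not pass the filter on low counts, and a gene passes it when 1 line is high enough. MAGEB2, MAGEA12, MAGEA1, XAGE2, MAGEA2B, MAGEA2, CT45A1, CT45A10, CTAGE9, MAGEC2, CTAGE8 and CTAGE15 passed it through the MKN28 controls. They could thus only be called lower in MKN45, and they enter these counts and the median given below. MAGEA3, MAGEA6, PRAME, SSX2IP and CTAGE4 had enough counts in both lines, and of these MAGEA3 and CTAGE4 were called lower. Line and culture cannot be told apart in this comparison.

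MAGEB2, a MAGE protein gene on Xp, had 0 counts in all 3 MKN45 controls, against 2052, 2629 and 2555 counts in MKN28 controls, at least 2044-fold lower in MKN45 (floor of 3 counts over the group). MAGEA12 had 0 counts in all MKN45 controls, against 1023, 1468 and 1337 counts in MKN28 controls, at least 1081-fold lower. MAGEA1, the first tumour antigen found to be seen by T cells, had 0 counts in MKN45 controls, against 1008, 1157 and 1126 counts in MKN28 controls, at least 930-fold lower. These 3 genes were off in MKN45 to the limit of depth and among the highest of the group in MKN28. XAGE2 had 0 counts in MKN45 controls, against 316, 663 and 286 counts in MKN28 controls, at least 357-fold lower. The same on-off pattern held for MAGEA2B, CT45A1, CT45A10, CTAGE9 and MAGEC2, at least 184-, 161-, 118-, 20.9- and 16.9-fold lower in that order. Only 17.6, 26.3, 36.6 and 30.7% of the 100-base stretches of MAGEA2B, CT45A1, CT45A10 and CTAGE9 are unique. Shared reads may have been counted elsewhere, so the bounds of these copies hold for the counts as deposited and may not limit their level. CT45A1 and CT45A10 are near-identical copies of a germline gene and MAGEC2 is a MAGE gene that binds the ligase cofactor TRIM28. MAGEA2 had 0, 3 and 0 counts in MKN45 controls, against 109, 154 and 181 counts in MKN28 controls, 125-fold lower (95% counting interval 42.6 to 610). With the 9 genes that had no count in MKN45 controls set at their bounds, the median log2 fold change of the 17 genes was -4.39, against -0.04 over all genes.

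Those that stayed on in MKN45 differed less. MAGEA3 had 484, 508 and 329 counts in MKN45 controls, against 1232, 1667 and 1646 counts in MKN28 controls, and was called lower (log2 fold change -1.51, SE 0.35, adjusted p = 0.00455). MAGEA6 had 813, 1214 and 494 counts in MKN45 controls, against 550, 997 and 956 counts in MKN28 controls, with overlapping groups (log2 fold change 0.32, SE 0.43, adjusted p = 0.578). PRAME, the substrate receptor of a CUL2 ubiquitin ligase and a repressor of retinoic acid receptor signalling, averaged 41.7 ± 9.76 CPM in MKN45 controls and 69.3 ± 10.9 CPM in MKN28 controls (SD, n = 3 each, scaled over the 6 controls). Its log2 fold change of -0.73 missed the threshold in the edgeR quasi-likelihood test (adjusted p = 0.0859) and passed it when replicate numbers were blocked (-0.74, adjusted p = 0.0103) and without MKN45 control replicate 2 (-0.93, adjusted p = 0.0348). SSX2IP, a centrosome and cell-junction protein gene that is no SSX gene, had a log2 fold change of 0.74 in the edgeR test (adjusted p = 0.191), and with the replicate block it was called higher in MKN45 (0.67, adjusted p = 0.0408). CTAGE4, CTAGE15 and CTAGE8, short intron-poor genes related to the secretory protein gene MIA2, were lower in MKN45 by log2 fold changes of -3.24, -2.91 and -2.34 (edgeR adjusted p 0.000638, 0.00328 and 0.0082). The call of CTAGE8 was lost without MKN28 control replicate 3 (adjusted p = 0.0558), and no more than 4.82% of the 100-base stretches of these 3 genes are unique to them.

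In MKN28 controls, MAGEB2, MAGEA3, MAGEA12, XAGE2, MAGEA1, MAGEA6 and PRAME stood highest per kilobase of transcript. Their mean levels there were 63.6, 36.5, 30.8, 28.9, 27.2, 20.1 and 19.2 CPM per kb in that order. In MKN45 controls the order was MAGEA6 at 31.5, MAGEA3 at 16.2, PRAME at 14.6 and SSX2IP at 5.97 CPM per kb. The remaining detected genes stayed under 1 CPM per kb in MKN45 controls. In MKN28 knockdown cells MAGEA12 led at 173 CPM per kb, while PRAME, at 8.41, stood below MAGEA2 at 14.1, MAGEA2B at 11.1, CT45A1 at 9.77 and CT45A10 at 9.60. The ratio of MAGEA6 to MAGEA3 counts was 0.772, 1.26 and 1.09 in MKN28 knockdown libraries, against 0.446, 0.598 and 0.581 in MKN28 controls, and it was 1.84, 1.38 and 1.73 in MKN45 overexpression libraries, against 1.68, 2.39 and 1.5 in MKN45 controls. MAGEA6 thus exceeded MAGEA3 in every MKN45 library and in none of the MKN28 controls. Many 100-base stretches of these sister genes are shared, as 65.1% of those of MAGEA3 and 67.0% of those of MAGEA6 occur in no other gene, so the ratio depends on how the authors' counting split shared reads.

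The on-off border ran through a single cluster on Xq28. From MAGEA3 to MAGEA6 (GRCh38 coordinates of GENCODE 29, chromosome X, 152698752 to 152769747) the order of genes is MAGEA3, CSAG2, MAGEA2B, CSAG1, MAGEA12, MAGEA2, CSAG3 and MAGEA6, over 71.0 kb. Over the 6 MKN45 libraries MAGEA3 and MAGEA6, at the ends, had 3412 and 6025 counts in all. The 6 genes between them had 0, 1, 0, 0, 4 and 1 counts in MKN45, in the order from CSAG2 to CSAG3. In MKN28 controls the same 6 genes had 86, 653, 1385, 3828, 444 and 181 counts over 3 libraries. The inner 6 were thus silent or nearly so in MKN45 while both ends were on, and all 8 were on in MKN28. The CSAG genes, a small family of tumour antigens that the rule does not hold, form head-to-head pairs with the inner MAGEA genes: the annotated starts of CSAG1 and MAGEA12 are 44 bases apart, and those of CSAG2 with MAGEA2B and of CSAG3 with MAGEA2 are 37 bases apart. With the strand setting of the authors' counting unknown, reads that span such a pair cannot be told apart.

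**Figure D3:**
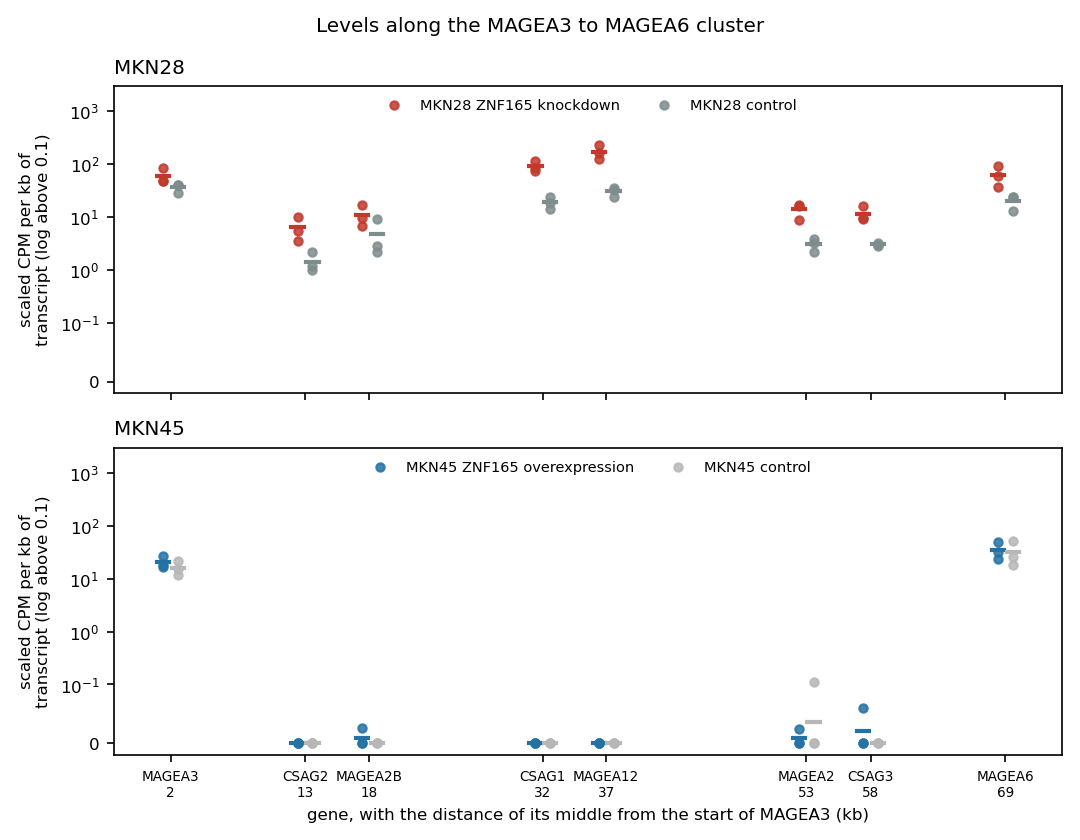
Level per kilobase of transcript (TMM-scaled CPM per kb, log axis above 0.1, linear below) of the 8 genes from MAGEA3 to MAGEA6, placed by the distance of their middle from the start of MAGEA3 in kb, in MKN28 (upper panel) and MKN45 (lower panel). Points are libraries and bars are group means; in MKN45 the means of MAGEA3 and MAGEA6 are 20.5 and 34.4 in overexpression cells and 16.2 and 31.5 in controls while the 6 inner genes lie at or near 0, and in MKN28 the group means of all 8 genes are above 1.

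The promoters of the cluster are shown so that the genes on in MKN45 and those off there can be read side by side. RefSeq promoter windows (250 bases before to 50 after the gene start, GRCh38.p14) were matched for 78 of the 94 genes, for 9 of the 9 genes on in both lines and for 17 of the 21 on in MKN28 alone. In the sequences that follow, capitals mark CCGGAA or CCGGAT on either strand (TTCCGG or ATCCGG where it lies on the other strand). Both are cores of ETS-type motifs that hold a CpG, the dinucleotide that is methylated. Motifs of this kind are known to drive MAGEA promoters in tumour cells.
MAGEA3 (chrX:152698544-152698843, plus strand): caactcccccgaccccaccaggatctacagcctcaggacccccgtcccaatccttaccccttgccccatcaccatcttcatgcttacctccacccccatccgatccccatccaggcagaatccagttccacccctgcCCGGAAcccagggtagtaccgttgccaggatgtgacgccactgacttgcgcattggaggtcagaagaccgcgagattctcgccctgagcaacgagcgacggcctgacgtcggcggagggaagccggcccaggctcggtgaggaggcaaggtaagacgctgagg
MAGEA6 (chrX:152769640-152769939, minus strand): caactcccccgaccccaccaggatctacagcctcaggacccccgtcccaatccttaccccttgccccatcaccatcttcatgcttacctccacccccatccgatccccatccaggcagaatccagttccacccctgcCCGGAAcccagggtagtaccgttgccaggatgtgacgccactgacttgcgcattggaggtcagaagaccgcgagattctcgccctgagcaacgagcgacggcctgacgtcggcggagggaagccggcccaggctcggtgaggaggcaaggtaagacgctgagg
MAGEA12 (chrX:152733507-152733806, plus strand): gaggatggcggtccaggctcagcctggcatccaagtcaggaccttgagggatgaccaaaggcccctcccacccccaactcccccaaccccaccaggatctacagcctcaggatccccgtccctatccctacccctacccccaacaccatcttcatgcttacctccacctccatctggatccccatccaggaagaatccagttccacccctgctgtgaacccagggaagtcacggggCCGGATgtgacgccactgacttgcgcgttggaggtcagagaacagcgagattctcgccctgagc
MAGEA2 (chrX:152753835-152754134, minus strand): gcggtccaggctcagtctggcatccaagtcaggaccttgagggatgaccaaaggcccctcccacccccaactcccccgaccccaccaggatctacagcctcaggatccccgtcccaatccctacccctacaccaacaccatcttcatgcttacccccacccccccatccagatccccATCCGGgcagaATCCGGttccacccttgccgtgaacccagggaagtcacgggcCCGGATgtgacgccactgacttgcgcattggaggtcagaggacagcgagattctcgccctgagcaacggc

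The MAGEA3 and MAGEA6 windows, at opposite ends of the cluster and on opposite strands, were identical over all 300 bases, each with 19 CpG dinucleotides and the CCGGAA core. MAGEA12 and MAGEA2 shared 93.6% of 295 aligned bases with each other and had 9 and 13 CpG dinucleotides. MAGEA2B, which had 1 count in MKN45, had 17, close to the 19 of the end genes. Against MAGEA3, the MAGEA12 window was identical at 89.4% of 227 aligned bases and that of MAGEA2 at 90.2% of 234. MAGEA12, MAGEA2 and MAGEA2B did not hold CCGGAA and did hold CCGGAT, which the end genes lacked. The single-copy gene PRAME, the other antigen gene strongly on in both lines, also held the CCGGAA core, on the other strand.
PRAME (chr22:22559216-22559515, minus strand): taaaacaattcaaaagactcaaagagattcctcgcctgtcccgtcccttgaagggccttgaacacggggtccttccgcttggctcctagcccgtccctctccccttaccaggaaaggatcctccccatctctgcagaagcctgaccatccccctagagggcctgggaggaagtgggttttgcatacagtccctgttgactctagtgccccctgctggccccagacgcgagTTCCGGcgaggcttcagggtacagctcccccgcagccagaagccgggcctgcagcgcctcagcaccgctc

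Over all 35116 promoter windows of the table, 17.2% held CCGGAA and 7.12% held CCGGAT on either strand. Of the 9 cancer/testis antigen genes on in both lines, 3 held CCGGAA and 0 held CCGGAT. Of the 17 with a window that were on in MKN28 alone, 0 held CCGGAA and 7 held CCGGAT, among them MAGEA4, MAGEB2 and MAGEC2. The median number of CpG dinucleotides was 18 in the 9 genes on in both lines and 10 in the 17 genes on in MKN28 alone, against 14 over all windows. The 9 include SSX2IP with 32, CTAGE15 with 19, and CTAGE4, CTAGE6 and CTAGE8 with 18 each, which only share first letters with the antigen families. The others were MAGEA3 and MAGEA6 with 19 each, PRAME with 13 and ACTL8 with 11. CTAGE9, among the 17, had 16. The numbers overlapped, with 11 to 32 in the genes on in both lines and 1 to 21 in those on in MKN28 alone, where MAGEB2 and MAGEA11 had 21 each. The start used for the window lay 23832 bases from the GENCODE gene start for MAGEA11, 674 for SPANXN5 and 342 for SSX2IP. SPANXN5 had the lowest number, 1, and SSX2IP the highest, 32, while MAGEA11 is among the 7 genes with CCGGAT. Whether these windows hold the promoters in use was not tested. MAGEA genes share an ancestor, so these windows are not independent of one another. A match is a run of letters and not a measured site, and neither binding nor methylation was measured here.

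ZNF165 knockdown in MKN28 came with higher levels of a subset of these genes. Of the 25 that could be tested, 10 were higher and 2 lower in knockdown cells (quasi-likelihood test of edgeR with Benjamini-Hochberg adjustment, adjusted p under 0.05). Over all 14939 genes tested, 40.8% were called, 19.2% higher and 21.6% lower. In the shortest length class of genes (75 to 1991 bases), which held 16 of the 25, 39.8% of all genes were called higher. After a trend on length and GC content was taken out, 7 of the 25 were called higher, close to the 24.3% of all genes. The genes called higher were MAGEA12, MAGEA2, MAGEA6, MAGEA1, XAGE3, SPANXA2, SPANXN5, SPANXB1, ACTL8 and TEX14, and those called lower were PRAME and SSX2IP. A gene passes the filter on low counts when 1 group is high enough. SPANXA2, SPANXN5, XAGE3 and ACTL8 passed it through the knockdown libraries, so that they could only be called higher. CTAGE9 passed it through the controls. Such genes enter the counts and medians given here. SPANXA2, SPANXN5, XAGE3 and ACTL8 are all among the 10 called higher, the 7 after the trend was taken out and the 5 with library totals alone. Those counts are therefore not shares of genes that could go either way. The median log2 fold change of the 25 was 0.72, against -0.20 over all genes. Without SSX2IP and the CTAGE genes 19 were tested, of which 10 were higher and 1 lower, with a median of 1.27. The knockdown and control groups did not overlap for 12 genes with knockdown higher (23.5% of all genes) and for 3 with knockdown lower (30.3% of all genes). With library totals as the only scaling, the median of all genes was -0.92 and 5 of the 25 were called higher (MAGEA12, XAGE3, SPANXA2, SPANXN5 and ACTL8), where 8.77% of all genes were called higher. Without MKN28 control replicate 1 the count was 4, and 6.67% of all genes were called higher.

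MAGEA12 had the highest level of any cancer/testis antigen gene in knockdown cells, with 221, 286 and 407 CPM in knockdown libraries, against 42.3, 62.3 and 57.9 CPM in MKN28 controls. Every knockdown library lay above every control, and the fold of 5.62 was called (log2 fold change 2.49, SE 0.46, edgeR adjusted p = 0.00447). It stayed past the threshold under all 15 other settings tried, with log2 fold changes of 1.67 to 2.81. One of the 15 sets knockdown replicate 1 alone against the 3 controls, so that its spread comes from the controls and the lone library is assumed to vary like them. Its neighbour MAGEA2 had 18, 34.9 and 33.0 CPM in knockdown libraries, against 4.51, 6.53 and 7.84 CPM in controls (log2 fold change 2.18, SE 0.53, adjusted p = 0.0103). That call was lost without MKN28 control replicate 1 (adjusted p = 0.0757). The near-copy MAGEA2B had 32.6, 13.2 and 18.9 CPM in knockdown libraries, against 4.18, 18 and 5.55 CPM in controls, and its groups overlapped (log2 fold change 1.23, adjusted p = 0.159; 0.0407 without MKN28 control replicate 2). Since 10.6% of the 100-base stretches of MAGEA2 and 17.6% of those of MAGEA2B are unique, reads of this pair may have been split between them.

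The end genes of the cluster, MAGEA6 and MAGEA3, differed in their calls. MAGEA6 had 65.1, 106 and 161 CPM in knockdown libraries, against 22.7, 42.3 and 41.4 CPM in MKN28 controls, with no overlap (log2 fold change 1.64, SE 0.51, adjusted p = 0.0264 by edgeR). MAGEA3 had 84.3, 84.0 and 148 CPM in knockdown libraries, against 51.0, 70.7 and 71.3 CPM in controls. Its groups did not overlap either, but its log2 fold change of 0.71 was not past the threshold (SE 0.45, adjusted p = 0.221), reached it without knockdown replicate 1 (adjusted p = 0.0321) and turned to -0.08 scaled by library totals alone and to -0.19 after a trend on length and GC content was taken out. MAGEA1, which lies outside the cluster, had 115, 73.0 and 149 CPM in knockdown libraries, against 41.7, 49.1 and 48.8 CPM in controls (log2 fold change 1.27, SE 0.45, adjusted p = 0.0436). The calls of MAGEA6 and MAGEA1 were lost without any 1 of the 3 controls and without knockdown replicate 3, and that of MAGEA6 also without knockdown replicate 2, with adjusted p of up to 0.143 and 0.200. The CSAG genes of the cluster were also called higher: CSAG1 had 76.2, 86.0 and 121 CPM in knockdown libraries, against 15, 24.4 and 19.4 CPM in controls (log2 fold change 2.27, adjusted p = 0.00569), and CSAG2 and CSAG3 had log2 fold changes of 2.14 and 1.94 (adjusted p 0.0223 and 0.0156), which missed the threshold when scaled by library totals alone (0.111 and 0.108).

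MAGEB2, at a level like that of the high MAGEA genes, was not called. It had 103, 69.7 and 118 CPM in knockdown libraries, against 84.9, 111 and 111 CPM in MKN28 controls, and a log2 fold change of -0.08 (SE 0.43, edgeR adjusted p = 0.899). MAGEC2 had 2.12, 1.68 and 1.49 CPM in knockdown libraries, against 0.703, 1.36 and 0.477 CPM in controls, higher in each library but not past the threshold (log2 fold change 1.06, adjusted p = 0.193). MAGEA4 and MAGEA11 stayed low, at 0.321 to 1.28 and 0.514 to 0.687 CPM in knockdown libraries, against 0.0827 to 1.19 and 0.414 to 0.551 CPM in controls.

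PRAME was lower in knockdown cells. It had 22.5, 23.3 and 25.5 CPM in knockdown libraries, against 51.2, 63.0 and 48.5 CPM in MKN28 controls, so the groups lay well apart. The log2 fold change was -1.19 (SE 0.44, edgeR adjusted p = 0.0491), -1.97 scaled by library totals alone (adjusted p = 0.0142) and -1.59 after a trend on length and GC content was taken out (adjusted p = 0.0021). The call was lost without any 1 of the 3 controls and without knockdown replicate 2 or 3, with adjusted p of up to 0.150. DESeq2 gave -1.03 (adjusted p = 0.0600). SSX2IP had 4.56, 1.09 and 0.458 CPM in knockdown libraries, against 17.0, 10.3 and 21.8 CPM in controls (log2 fold change -2.97, SE 0.80, edgeR adjusted p = 0.0152). Its call was lost without MKN28 control replicate 1 or 3 (adjusted p 0.0506 and 0.0538), and after a trend on length and GC content was taken out the value was -0.85 (adjusted p = 0.0968). The transcript of SSX2IP is 5843 bases long, the longest among the tested genes of the group.

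The SPANX genes, which encode proteins of the sperm nucleus, were close to silent in controls and low in knockdown cells. SPANXA2 had 14, 13 and 7 counts in knockdown libraries, against 0 counts in all 3 MKN28 controls, at least 23.3-fold higher (floor of 3 counts over the group, edgeR adjusted p = 0.00409). SPANXN5 had 22, 25 and 7 counts in knockdown libraries, against 0, 0 and 3 counts in controls, 37.0-fold higher (95% counting interval 12 to 185, adjusted p = 0.00656). SPANXB1 had 38, 16 and 5 counts in knockdown libraries, against 1, 4 and 13 counts in controls (log2 fold change 2.57, SE 0.90, adjusted p = 0.0419). Its raw counts overlap, its scaled levels of 2.44, 1.58 and 0.572 CPM in knockdown libraries and 0.0414, 0.170 and 0.563 CPM in controls only just do not, and its call was lost without MKN28 control replicate 1 or 2 or knockdown replicate 1 or 2 (adjusted p of up to 0.171). SPANXA1, which shares every 100-base stretch with SPANXA2, and SPANXD had 4 to 20 and 4 to 14 counts in knockdown libraries, against 0 to 4 and 0 to 2 counts in controls, and did not pass the filter. For the pair SPANXA1 and SPANXA2 no read can be assigned to 1 copy, so their counts are best read together.

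Among the XAGE genes, relatives of the GAGE family on Xp, XAGE3 had 1.28, 2.07 and 4.81 CPM in knockdown libraries, against 0.331, 0.339 and 0.347 CPM in MKN28 controls (log2 fold change 2.96, SE 0.70, edgeR adjusted p = 0.00918; 0.0588 without control replicate 1). XAGE2 had 36.5, 6.62 and 21.1 CPM in knockdown libraries, against 13.1, 28.1 and 12.4 CPM in controls, with a log2 fold change of 0.26 (adjusted p = 0.769). CT45A1 and CT45A10 were high in 1 knockdown library only. CT45A1 had 20.8, 6.03 and 5.04 CPM in knockdown libraries, against 7.82, 7.29 and 9.01 CPM in controls (adjusted p = 0.62). CT45A10 had 20.3, 5.14 and 3.66 CPM in knockdown libraries, against 4.96, 6.36 and 6.37 CPM in controls (adjusted p = 0.409). CT45A2 had 43, 0 and 0 counts in knockdown libraries, against 0 counts in controls, so replicate 1 again stood alone, and CT45A5 had 6, 0 and 0 counts, against 7, 5 and 15 counts.

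Of the single genes, ACTL8, an actin-like gene of the testis, had 1.16, 6.52 and 3.78 CPM in knockdown libraries, against 0.372, 0.127 and 0.390 CPM in MKN28 controls (log2 fold change 3.65, SE 0.81, edgeR adjusted p = 0.00731). Its call held without each library in turn. TEX14, needed for the bridges that join germ cells, had 6.68, 1.58 and 1.49 CPM in knockdown libraries, against 0.703, 0.254 and 0.520 CPM in controls (log2 fold change 2.72, SE 0.78, adjusted p = 0.0196). Without any 1 of the controls its adjusted p was 0.0636 to 0.0712, and it was called after a trend on length and GC content was taken out (log2 fold change 3.69). None of the CTAGE genes passed the threshold, and after a trend on length and GC content was taken out CTAGE6 and CTAGE8 had log2 fold changes of 0.15 and 0.07. CTAGE4 had 12.7, 6.32 and 2.52 CPM in knockdown libraries, against 18.5, 6.83 and 32.3 CPM in controls (adjusted p = 0.139). CTAGE15 had 1.99, 0.198 and 0.114 CPM in knockdown libraries, against 2.94, 1.02 and 5.94 CPM (adjusted p = 0.122). CTAGE8 had 1.41, 0.988 and 0.572 CPM in knockdown libraries, against 1.53, 0.975 and 3.90 CPM in controls (adjusted p = 0.238). Their scaled levels overlapped the controls in each case. CTAGE6 had 0.578, 0.790 and 0.114 CPM in knockdown libraries, against 1.16, 0.170 and 1.99 CPM in controls (adjusted p = 0.348). CTAGE9 had 6, 0 and 0 counts in knockdown libraries, against 21, 14 and 39 counts in controls, with no overlap and an adjusted p of 0.0575. Without knockdown replicate 1, CTAGE4, CTAGE9 and CTAGE15 were called lower (adjusted p 0.0123, 0.0041 and 0.00217).

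**Figure D4:**
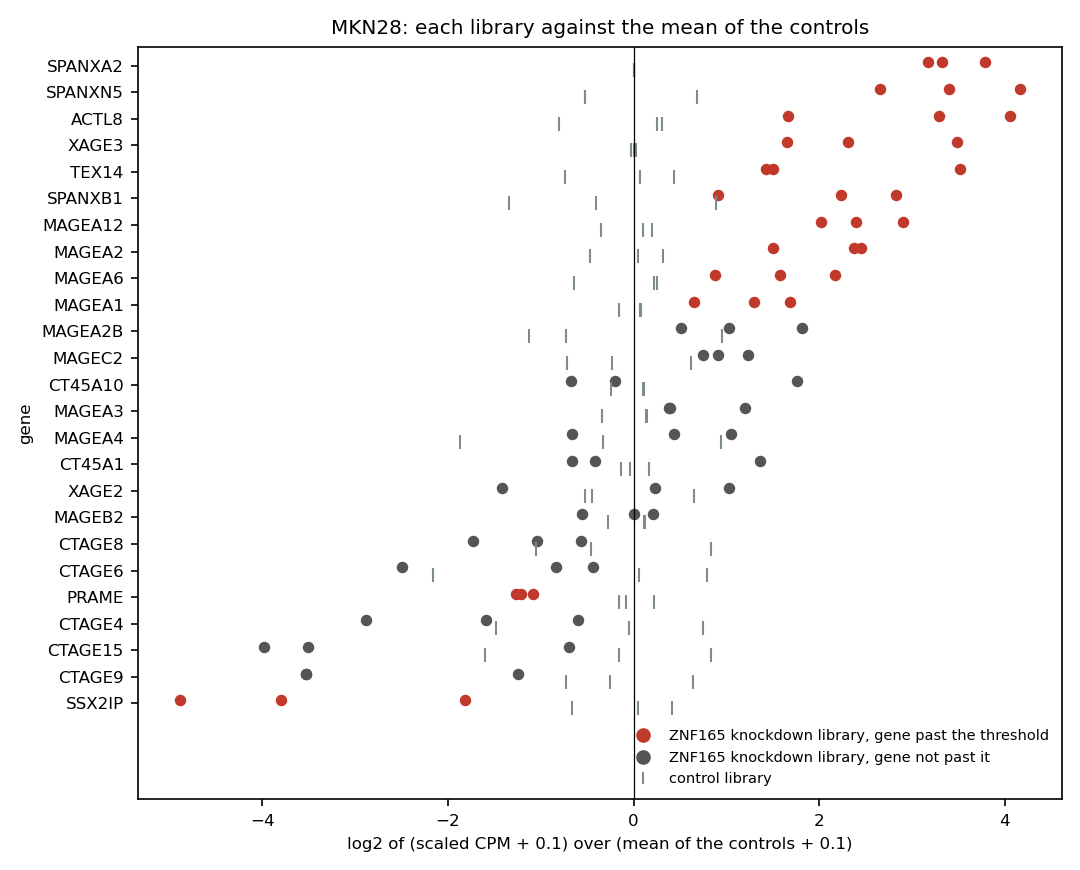
Log2 of the scaled CPM of each MKN28 library plus 0.1 over the mean of the 3 MKN28 controls plus 0.1 (horizontal axis), for the 25 tested cancer/testis antigen genes sorted by fitted log2 fold change. Filled circles are ZNF165 knockdown libraries (red where the gene passed the threshold) and grey ticks are control libraries; the 3 circles of MAGEA12 lie far right of its ticks and those of PRAME far left.

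Transcript length and library composition moved with this comparison. TMM factors, which scale for composition, were 1.03, 0.568 and 0.724 in knockdown libraries and 1.38, 1.26 and 1.35 in MKN28 controls. Across genes, the rank correlation of counts with transcript length was 0.0165, -0.0802 and -0.0866 in knockdown libraries and 0.333, 0.234 and 0.337 in controls. That with GC content was 0.0531, 0.391 and 0.381 in knockdown libraries and -0.0875, 0.0861 and -0.144 in controls. On GC content knockdown replicate 1 lay within the range of the controls, while replicates 2 and 3, described with other siRNA constructs, lay above it. The shortest of 4 equal classes of genes (75 to 1991 bases) had a median log2 fold change of 1.15, with 39.8% of its genes called higher, and the longest class had one of -1.62, with 4.28% called higher. Of the 25 cancer/testis antigen genes tested, 16 were in the shortest class and 7 in the next. After a trend on length and GC content was taken out over all genes, 7 of the 25 were called higher (MAGEA12, MAGEA2, XAGE3, SPANXA2, SPANXN5, ACTL8 and TEX14) and PRAME alone was called lower, where 24.3% of all genes were called higher and 17.2% lower. MAGEA1 (log2 fold change 0.59), MAGEA6 (0.78) and SPANXB1 (1.19) were then not past the threshold. The 8 epithelial markers, keratins among them, summed to 14569 to 39461 CPM of the library total in knockdown libraries, against 7220 to 7765 CPM in controls. Of these 8, 5 were called higher in edgeR and CDH1 was called lower (log2 fold change -2.05, adjusted p = 0.0075), while EPCAM stood at -0.03. The 5 fibroblast markers, of which COL1A1 alone had enough counts to be tested, summed to 27 to 44.0 CPM in knockdown libraries, against 89.0 to 122 CPM in controls. The 6 Sertoli and Leydig cell markers summed to 28.2 to 32.8 CPM in knockdown libraries, against 115 to 218 CPM in controls. Of the 4 tested, SOX9 alone was called lower (log2 fold change -1.91, edgeR adjusted p = 0.00973). INHA, INSL3 and AMH stood at 1.94, 2.40 and -0.01 and were not called. The 5 leukocyte markers summed to 2.05 to 3.53 CPM in knockdown libraries, against 0.341 to 0.535 CPM in controls. The part of composition and of these markers in the remaining differences was not tested.

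**Figure D5:**
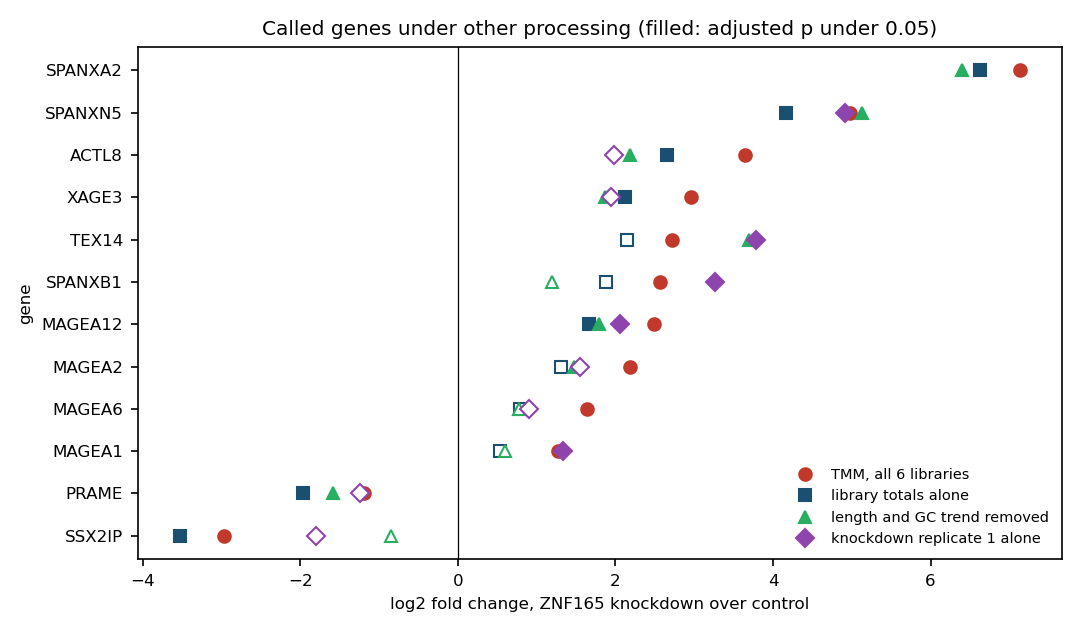
Log2 fold change of ZNF165 knockdown over control in MKN28 (horizontal axis) for the 12 cancer/testis antigen genes called with TMM scaling, under 4 settings shown by marker shape and colour (filled where the adjusted p is under 0.05). The setting with knockdown replicate 1 alone sets 1 library against 3 controls and takes its spread from the controls; SPANXA2 has no value there, MAGEA12 is filled under all 4 settings, and MAGEA1, MAGEA6 and SPANXB1 are open under library totals alone and after removal of the trend.

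ZNF165 overexpression in MKN45 changed none of these genes past the threshold. Of the 8 tested, 0 were called higher and 0 lower (quasi-likelihood test of edgeR with Benjamini-Hochberg adjustment, adjusted p under 0.05), against 1.13% of all 15833 genes, 0.935% higher and 0.196% lower. At an unadjusted p under 0.05, 1 of the 8 passed, CTAGE8, and DESeq2 also called 0. Overexpression libraries lay above all controls for 3 of the 8 (CTAGE8, CTAGE15 and SSX2IP), against 19.4% of all genes. No cancer/testis antigen gene without a count in MKN45 controls reached 10 counts in overexpression libraries.

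MAGEA3 had 46.8, 29.6 and 31.8 CPM in overexpression libraries, against 27.1, 37.5 and 21.0 CPM in MKN45 controls (log2 fold change 0.34, SE 0.29, edgeR adjusted p = 0.464). MAGEA6 had 86.1, 40.7 and 55.1 CPM in overexpression libraries, against 45.5, 89.5 and 31.5 CPM in controls (log2 fold change 0.13, SE 0.41, adjusted p = 0.86). PRAME had 44.5, 36.0 and 33.0 CPM in overexpression libraries, against 37.1, 50.1 and 36.6 CPM in controls (log2 fold change -0.12, SE 0.24, adjusted p = 0.756). For all 3 the groups overlapped. SSX2IP had 58.5, 61.3 and 61.8 CPM in overexpression libraries, against 47.1, 15.9 and 41.8 CPM in controls, where replicate 2 was the low one (log2 fold change 0.79, SE 0.36, adjusted p = 0.197). CTAGE8 had 0.914, 0.979 and 1.07 CPM in overexpression libraries, against 0.503, 0.443 and 0.637 CPM in controls (adjusted p = 0.177), and CTAGE15 had 0.813, 1.08 and 1.24 CPM, against 0.503, 0.443 and 0.701 CPM (adjusted p = 0.187). CTAGE4 had 2.95, 4.65 and 4.51 CPM in overexpression libraries, against 2.40, 1.48 and 3.82 CPM in controls (adjusted p = 0.304). ACTL8 had 1.68, 1.03 and 0.225 CPM in overexpression libraries, against 0.168, 0.664 and 0.955 CPM in controls (adjusted p = 0.532).

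Whether more against less ZNF165 acted differently in the lines was tested as the overexpression effect in MKN45 minus the effect of control over knockdown in MKN28. Of the 25 genes tested, 2 were called, ACTL8 (log2 difference 4.45, SE 1.15, edgeR adjusted p = 0.0201) and TEX14 (4.06, SE 1.05, adjusted p = 0.0200), both with positive values. The call of ACTL8 was lost with the replicate block (4.06, adjusted p = 0.058) and that of TEX14 when scaled by library totals alone (3.55, adjusted p = 0.0645). Over all 17266 genes tested, 17.5% were called, 8.09% with positive values and 9.38% with negative values. MAGEA6 (1.82, adjusted p = 0.0722), PRAME (-1.28, adjusted p = 0.0634) and SSX2IP (-2.12, adjusted p = 0.0931) were not past the threshold. For MAGEA12, MAGEA1, MAGEB2 and the other genes with no count in MKN45 the contrast cannot be estimated. These genes are among the 25 but could not be called, so the 2 calls cannot be set against the share over all genes.

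Genes that set or remove DNA methylation or repress germline genes were measured in the same libraries. Of 26 such genes, 25 were tested in the knockdown, 1 was higher and 9 were lower (edgeR, Benjamini-Hochberg), with a median log2 fold change of -0.97, against -0.20 over all genes, of which 19.2% were higher and 21.6% lower. The lower ones with the largest changes were MGA, a subunit of the Polycomb complex that represses germline genes (-5.63, adjusted p = 0.00367), TET2, an enzyme that oxidises methylated cytosine (-3.71, adjusted p = 0.0228), HELLS, a chromatin remodeller needed for DNA methylation (-2.65, adjusted p = 0.0142), and DNMT3A, a DNA methyltransferase (-2.30, adjusted p = 0.00678). DNMT3A had 7.39, 4.74 and 6.18 CPM in knockdown libraries, against 29.3, 25.9 and 35.0 CPM in MKN28 controls. Most of these transcripts are long: those of MGA, TET2 and DNMT3A have 14439, 10166 and 9501 bases. After a trend on length and GC content was taken out, 5 were higher and 6 lower, against 24.3% and 17.2% of all genes, with MGA at -3.07 (adjusted p = 0.00121) and DNMT3A at -1.23 (adjusted p = 0.0215) still called, and TET2 and HELLS not. Overexpression called none of the 26 in edgeR, against 1.13% of all genes. Between controls, 2 of the 26 were higher and 6 lower in MKN45, led by TET1 (3.25, adjusted p = 0.000585), TET3 (-2.51, adjusted p = 0.000129) and DNMT3B (-2.46, adjusted p = 0.000319). Over all genes tested between controls, 21.4% were higher and 20.4% lower.

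Transcripts of proteins that MAGE, PRAME and SSX antigens bind were called in both directions in the knockdown. Of 19 tested in edgeR, 2 were higher and 8 lower, against the same 19.2% and 21.6% of all genes. ELOB, an adaptor of the CUL2 ligase to which PRAME belongs, was higher (3.21, adjusted p = 0.00541), while CUL2 itself (-2.77, adjusted p = 0.0145) and the MAGE-linked ligase HUWE1 (-3.40, adjusted p = 0.00367) were lower. TRIM28, the ligase partner of several MAGE proteins, had 486, 2264 and 1375 CPM in knockdown libraries, against 374, 470 and 403 CPM in controls (1.73, adjusted p = 0.0361), and was not called scaled by library totals alone (adjusted p = 0.17) or after a trend on length and GC content was taken out (adjusted p = 0.0835), where the list gave 6 higher and 3 lower. The ubiquitous MAGE genes, which are expressed in somatic tissues, gave 0 calls of 4 tested in the knockdown. Among 49 other testis-restricted genes, 14 were tested in the knockdown, 4 were higher (the 3 CSAG genes and LY6K, a surface protein gene, with 2.30 and adjusted p = 0.0133) and 5 lower, led by TMEFF1 (-3.94, adjusted p = 0.0169) and KDM5B (-2.99, adjusted p = 0.00479). Over all genes tested, 19.2% were higher and 21.6% lower. When scaled by library totals alone 1 of the 14 was called higher and 6 lower, against 8.77% and 26.1% of all genes. Between controls, 3 of the 16 tested were higher in MKN45 by edgeR, HORMAD1 (8.87, adjusted p = 2.37e-06), PIWIL2 (4.81, adjusted p = 0.000236) and TEX19 (2.01, adjusted p = 0.0174). A further 6 of the 16 were lower, and over all genes 21.4% were higher and 20.4% lower. MKN45 was thus not silent for every testis-restricted gene.

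Related genes that somatic cells use gave the background to these changes. Of 10 ubiquitous paralogs, 1 was higher in the knockdown, the cytoskeletal actin ACTB (1.63), and 4 were lower, led by the helicases DDX17 (-4.56) and DDX3X (-3.02), by edgeR with Benjamini-Hochberg adjustment. Over all genes tested, 19.2% were higher and 21.6% lower. After a trend on length and GC content was taken out, 0 of the paralogs were higher and 1 lower, against 24.3% and 17.2% of all genes. Of 10 proliferation-linked genes that have also been called cancer/testis genes, 0 were higher and 5 lower in the knockdown, led by ATAD2 (-4.45) and TOP2A (-4.44), and 3 stayed lower after that trend was taken out. The shares over all genes are those given for the paralogs. Overexpression called 0 of either list, against 1.13% of all genes.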

How the data were processed

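RNA-seq of 12 libraries (4 groups of 3) was analysed from 1 deposited table of whole-number counts per Ensembl identifier, not normalized by the authors as far as the values show. HISAT2 and StringTie were used per the submitters' processing notes, without versions; the sources used here give no counting step, genome build, annotation or strandedness. Near-identical copies and overlapping neighbours may therefore share or lose reads. Symbols came from the gene name table and, for 2 genes, from GENCODE 29, which gave coordinates, lengths and biotypes.

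Counts were fitted with edgeR 4.0.16 (R 4.3.3): TMM factors, filterByExpr (minimum count 10, minimum total 15), quasi-likelihood tests, Benjamini-Hochberg adjustment over all genes, adjusted p under 0.05. Each comparison used its own 6 libraries, and the difference between lines used all 12. CPM values are TMM-scaled within a line; SE is the log2 fold change over the root of F. ZNF165 also had an exact two-sided permutation test on log2(CPM + 1), whose smallest possible p with 3 against 3, 0.1, was reached in both arms. The fits were first tested on simulated counts. Alternatives were DESeq2 1.42.0, other scalings, no filter, a replicate block, a length and GC trend (mgcv 1.9.3), a joint fit, knockdown replicate 1 alone and leaving out each library.

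Same-numbered controls of the lines deviated together (correlations 0.264, 0.507 and 0.281 across genes). So did MKN45 control 1 with MKN28 control 3 (0.275) and MKN45 control 3 with MKN28 control 1 (0.150). The remaining combinations were negative (-0.297 to -0.394). These values do not settle whether the numbers pair the controls. The main fits used no block, and the replicate block was an alternative. All genes with at least 10 counts in a library are named, and of each context list at most 4 per comparison, those with the largest changes past the threshold. Members and lists were chosen with earlier results of these data known. Floors and intervals (95%, exact) cover counting error only.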

Additional observations from a re-analysis of the deposited data

Results flagged for a closer look

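The effect of more against less ZNF165 differed between the lines for ACTL8 and TEX14, by a test of the difference itself. They were 2 of the 25 genes tested, where 8.09% of all 17266 genes were called with positive values. The 25 include genes with no count in MKN45, for which the contrast cannot be estimated, so the 2 shares are not alike. In overexpression alone ACTL8 was not called (edgeR adjusted p = 0.532) and TEX14 did not pass the filter. For ACTL8 the effect in MKN45 minus that in MKN28 was 4.45 on the log2 scale (edgeR adjusted p = 0.0201). Knockdown libraries had 18, 66 and 33 counts against 9, 3 and 9 in MKN28 controls, and overexpression libraries had 33, 21 and 4 counts against 3, 9 and 15 in MKN45 controls. For TEX14 the difference was 4.06 (edgeR adjusted p = 0.0200). Knockdown libraries had 104, 16 and 13 counts against 17, 6 and 12 in MKN28 controls, and overexpression libraries had 5, 9 and 5 counts against 1, 2 and 3 in MKN45 controls. ACTL8 missed the threshold without MKN28 control replicate 1, knockdown replicate 2, MKN45 control replicate 1 or overexpression replicate 1, and TEX14 without MKN45 control replicate 1 or overexpression replicate 2, with adjusted p of up to 0.0675 and 0.0654. ACTL8 also missed it with the replicate block (4.06, adjusted p = 0.058) and TEX14 with library totals alone (3.55, adjusted p = 0.0645). All of these counts are low.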

How the results depend on the processing

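No value changed sign among those past the threshold under any alternative run. In the knockdown, 6092 genes were called, against 3352 with knockdown replicate 1 alone and 2642 to 10378 without 1 library. Of the antigen genes, 10 were higher, against 5 with library totals alone, 5 with the replicate block plus length and GC trend, and 4 to 10 without 1 library. The 2 lower became 1 with the length and GC trend removed, 1 with the block as well, 0 with knockdown replicate 1 alone and 0 to 5 without 1 library (5 without knockdown replicate 1). In overexpression 179 genes were called, against 1834 with DESeq2, 722 with no filter, 8 with the replicate block, 1271 with the length and GC trend removed, 43 with both, 3 in the fit of all 12 libraries and 1 to 1338 without 1 library. No antigen gene was called under any of these. Between controls 6717 genes were called (5085 to 7499 without 1 library), 14 antigen genes were lower (13 to 18), and 0 were higher, against 1 with the replicate block, 1 with the length and GC trend removed, 1 with both and 0 to 1 without 1 library. The difference between lines called 3017 genes, against 4730 with DESeq2 and 1163 to 8210 without 1 library. Antigen genes with positive values numbered 2, against 1 with library totals alone, 1 with the replicate block and 0 to 4 without 1 library; those with negative values numbered 0, against 2 with DESeq2, 1 with library totals alone, 2 with no filter, 1 with the length and GC trend removed and 0 to 3 without 1 library. Detected genes numbered 30 in MKN28 (53 at 1 count, 28 to 30 without 1 library) and 9 in MKN45 (25 at 1 count, 15 at 3 counts, 9 without any 1 library); leaving out libraries here was chosen after seeing the data.

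The replicate block gave 6994 knockdown genes, with 9 antigen genes higher and 3 lower; same-numbered knockdown and control libraries did not all deviate together (correlations 0.291, 0.431 and -0.357), nor did overexpression and control libraries (-0.0553, -0.0547 and 0.0867). The share of higher calls in the knockdown was 47% of all calls, 25.1% by library totals alone, and 58.6% once the length and GC trend was removed; in overexpression it was 82.7%, 56.6% with DESeq2 and 49% with that trend removed. The cause of these changes was not tested. Genes with fewer than 3 counts in a group cannot be ranked at this depth.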
